A study of Mus musculus with 4 samples.

Results

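Astrocytes are the glial cells that clear glutamate from the synaptic cleft, buffer water and potassium, and become reactive after nerve injury. The description covers 10 genes that are widely used as astrocyte markers (*Gfap*, *Aqp4*, *Slc1a2*, *Slc1a3*, *Aldh1l1*, *S100b*, *Gja1*, *Glul*, *Vim* and *Sox9*), and their peaks were taken from the deposited tables by gene name. Of the 10 genes, 9 had at least 1 m6A peak in either list, out of 13554 gene names with a peak. N6-methyladenosine (m6A) is a methyl mark on adenosine inside mRNA that is laid down by a nuclear writer complex, can be removed by FTO and ALKBH5, and is bound by reader proteins that affect mRNA decay and translation. In most mRNAs it gathers around the stop codon and in the 3′-UTR, and the antibodies used to capture it also bind a related methylated adenosine at the cap, at the very start of the transcript.

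Spinal cord was taken from C57BL/6J mice aged 6 to 8 weeks, 7 days after chronic constriction injury (CCI), in which the sciatic nerve is loosely tied with silk, or after sham surgery, in which the nerve is exposed without a ligature. Each group had 1 library of RNA captured with an antibody against m6A (IP) and 1 library of the same RNA before capture (input), 4 libraries in all, so no difference between CCI and sham has a replicate check and none was tested. The number of mice behind each library is not given in the sources used here. The value of a peak is its fold enrichment, the IP over the input signal as the authors' peak caller gave it, and without read counts in the tables the depth behind each value is unknown. A fold enrichment is no RNA level. In whole spinal cord, fewer astrocytes and less RNA per astrocyte cannot be told apart, and the tables do not show which cells a methylated transcript came from.

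The 10 genes held 28 peaks in the CCI list and 27 in the sham list. In CCI, 16 of the 28 were annotated in a 3′-UTR, 9 in a 5′-UTR and 3 in an exon, and in sham the numbers were 14, 9 and 4. Over all peaks, 49.8% of the CCI list and 48.9% of the sham list lay in a 3′-UTR, and 14.7% and 16.1% in a 5′-UTR. The median fold enrichment of the markers' peaks was 4.58 in CCI and 4.68 in sham, below the 5.72 and 5.70 of all peaks. The peaks were nonetheless strong in evidence, with a median log10 p of IP against input of -114 in CCI and -155 in sham, against -16.4 and -17.9 over all peaks. A peak was counted as shared when its exonic bases overlapped a peak of the other list by at least 1 bp. All but 5 of the markers' peaks were shared, 25 of 28 in CCI and 25 of 27 in sham, where 87.7% and 83.9% of all peaks were. The 5 peaks without a partner were weak, with log10 p between -11.4 and -4.76.

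**Figure D1:**
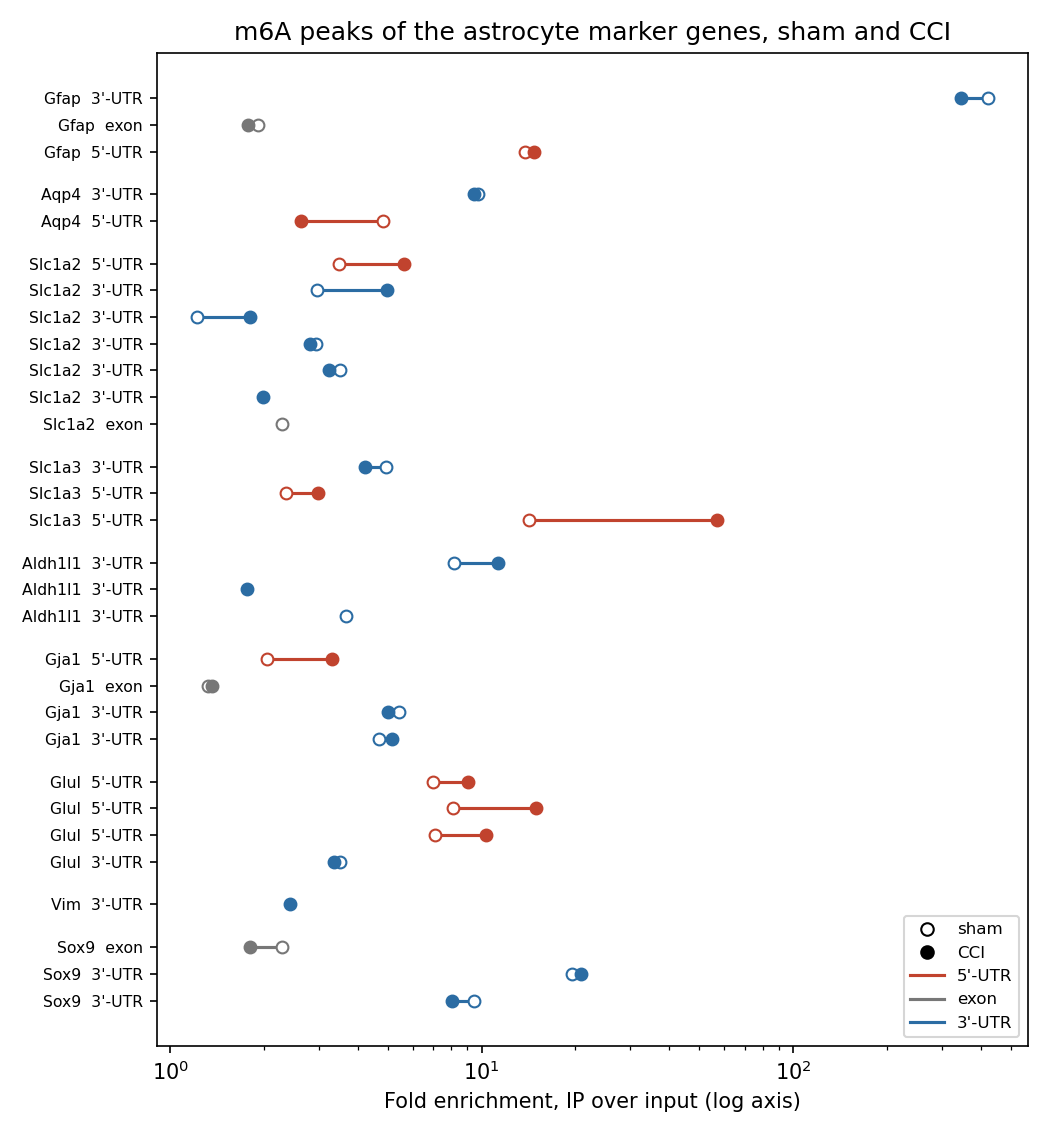
Fold enrichment of IP over input (log axis) of every peak of the marker genes, 1 row a peak, with sham as open and CCI as filled circles and a line joining the peaks of a shared pair. The 3′-end peak of *Gfap* stands apart on the right at 346 and 422, and the longest line belongs to a 5′-UTR peak of *Slc1a3*, from 14.2 in sham to 56.8 in CCI.

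The sequences at the transcript starts of *Glul* and *Gfap* are shown because both genes had a 5′ peak that reaches into the RefSeq start window, and because at *Glul* that peak coincides with a microRNA gene. The first is 30 bases around the RefSeq start of *Glul* (chr1:153899914-153899943, plus strand) and the second 30 bases downstream of that of *Gfap* (chr11:102897151-102897180, minus strand), from RefSeq on GRCm38.p6, with capitals for the bases inside the gene's narrowest 5′ pair of peaks in both lists. The third is the mature microRNA annotated inside the *Glul* peak (chr1:153899989-153900009, plus strand), with its seed, bases 2 to 8, in capitals.
Glul start: aataaaaagtacCGAGCAGCCAGCGACCCT
Gfap start: ttagtccaacccgTTCCTCCATAAAGGCCC
mmu-miR-8114: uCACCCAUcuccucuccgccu
The core motif of m6A was searched for as GGACT or GGACA or GGACC or GAACT in the 50 bases after each RefSeq start. On the strand of the RNA, no match was found in the window of *Glul* or in that of *Gfap*, and on the opposite strand there were 0 and 1. Of 32851 such windows, 19.3% held a match on the strand of the gene and 18.6% on the opposite strand. The rest of the peaks lies outside these windows and was not searched.

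*Gfap* (ENSMUSG00000020932) encodes the intermediate filament protein of astrocytes and is the classical gene of their reactive state. Its 3 peaks were shared by both lists. The peak at the end of the 3′-UTR (chr11:102887336-102887515 in CCI) had a fold enrichment of 422 in sham against 346 in CCI, a log2 ratio of CCI to sham of -0.29. Both values were near the top of their lists, at the 99.9 and 99.8 percentile. The evidence did not stand out in the same way, with a log10 p of -180 in sham and -178 in CCI, against -206 and -132 for the exon peak. The exon peak was close to the lower end in both groups, at 1.91 in sham against 1.78 in CCI (log2 ratio -0.10). At the transcript start the fold enrichment was 13.8 in sham against 14.7 in CCI (log2 ratio 0.09), over 120 exonic bp in sham and 61 bp in CCI. None of the 3 pairs of *Gfap* differed by as much as 2-fold, although the sites of the gene ranged from under 2 to over 300 in fold enrichment.

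*Vim* encodes vimentin, the partner filament protein of reactive astrocytes, which endothelial cells and microglia also express. It had no peak in sham and 1 in CCI, of 60 bp in the 3′-UTR (chr2:13582677-13582736), with a fold enrichment of 2.42 and a log10 p of -7.87. This was the only marker with a peak in 1 list alone, where 86.8% of all gene names with a peak were in both lists. Of the 10362 CCI peaks with evidence no stronger than that of *Vim*, 33.9% had no partner in sham.

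The largest ratios of CCI to sham were those of *Slc1a3* and *Glul*, genes of glutamate uptake and conversion. *Slc1a3* (ENSMUSG00000005360), a glutamate transporter of astrocytes, had 1 pair in the 3′-UTR and 2 near its start. The pair nearest the start (chr15:8709565-8710524, 210 exonic bp in both lists) had a fold enrichment of 14.2 in sham against 56.8 in CCI, a log2 ratio of 2.00. Of the 25 pairs of the markers it was the only one at least 2-fold higher in CCI, and none was at least 2-fold lower. Among all 27380 shared pairs, 8.59% were at least 2-fold higher in CCI and 7.25% at least 2-fold lower, and among all shared pairs in a 5′-UTR 11.2% were at least 2-fold higher. The evidence for this peak was similar in both lists, with a log10 p of -14.8 in sham and -18.2 in CCI. These values were near the medians over all peaks, -17.9 in sham and -16.4 in CCI. They were far weaker than the medians of the markers' peaks, -155 and -114. The pair was not among the rows of the authors' differential table. The neighbouring 5′ pair of *Slc1a3* had 2.36 in sham against 2.99 in CCI (log2 ratio 0.34), whereas the 3′-UTR pair had 4.92 and 4.21 (log2 ratio -0.22).

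*Slc1a2* (ENSMUSG00000005089), which encodes the main glutamate transporter of the adult spinal cord, had 5 shared pairs. At the transcript start (chr2:102658689-102658989, the same borders in both lists) the fold enrichment was 3.48 in sham against 5.63 in CCI, a log2 ratio of 0.69. Its long 3′-UTR was split. The 2 pairs farther from the end were higher in CCI, with 2.96 in sham against 4.96 in CCI at chr2:102786467-102786677 (log2 ratio 0.74) and 1.22 and 1.81 at chr2:102787636-102787786 (log2 ratio 0.57). The values of the latter pair were near the floor, at the 0.125 percentile of the sham list and the 5.75 percentile of the CCI list. The 2 pairs nearest the end had nearly the same values in both groups, with 2.95 in sham against 2.82 in CCI (log2 ratio -0.07) and 3.50 and 3.24 (log2 ratio -0.11). An exon peak was listed in sham only (fold enrichment 2.28) and a 3′-UTR peak in CCI only (1.99).

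*Glul* (ENSMUSG00000026473) encodes glutamine synthetase, which turns the glutamate taken up by astrocytes into glutamine. Its 4 pairs lay at 2 places. Of these pairs, 3 cover overlapping bases at the transcript start and are not independent, and the fourth lies in the 3′-UTR. The narrowest 5′ pair (chr1:153899926-153900036) had 8.09 in sham against 15.0 in CCI, a log2 ratio of 0.89. Its borders in both lists are those of the 111-base hairpin of mmu-miR-8114, and the tables list it under *Glul*. The other 5′ pairs, with 6.97 in sham against 9.01 in CCI and 7.06 against 10.3, gave log2 ratios of 0.37 and 0.54. In the 3′-UTR of *Glul* the fold enrichment was 3.51 in sham against 3.35 in CCI (log2 ratio -0.07). All 3 values at the start of the gene were thus higher in CCI, and the 3′-UTR values were nearly equal.

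**Figure D2:**
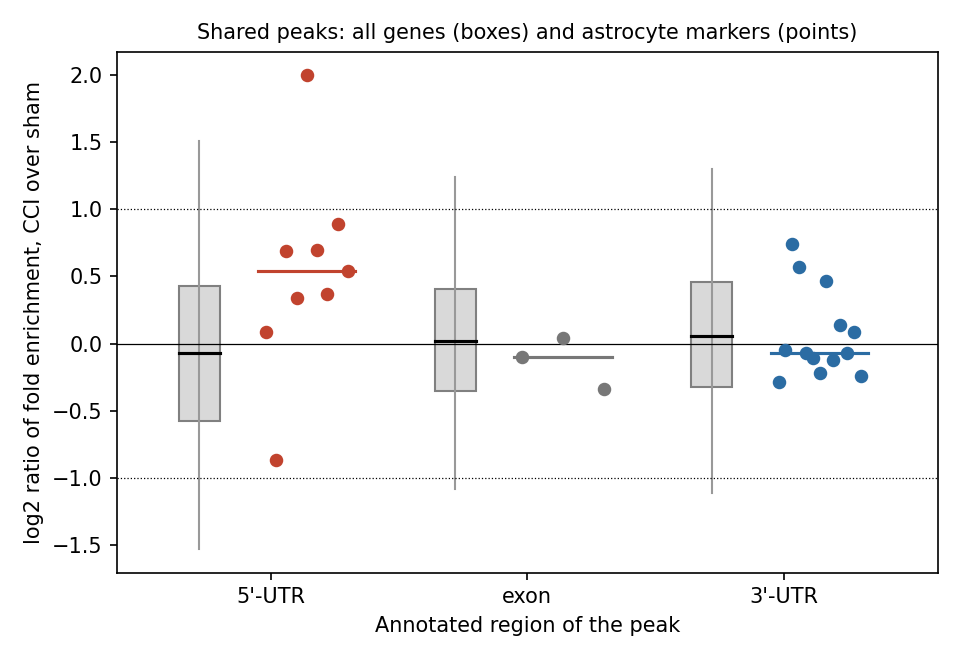
Log2 ratio of fold enrichment of CCI over sham by annotated region. Grey boxes give the middle 50% and the median of all shared pairs, with lines from the 5 to the 95 percentile; points are the 25 pairs of the marker genes with their median as a coloured line, and dotted lines mark 2-fold. In the 5′-UTR 8 of the 9 points lie above 0 with a median of 0.54, and in the 3′-UTR 8 of the 13 points lie below 0.

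The channel genes showed the same contrast in *Gja1* and the reverse in *Aqp4*. *Gja1* (ENSMUSG00000050953) encodes the main gap junction protein that couples astrocytes. Its 5′-UTR pair, at 78.4% of the gene's span from its start, had 2.04 in sham against 3.32 in CCI (log2 ratio 0.70), the exon pair 1.32 and 1.36 (log2 ratio 0.04), and the longest 3′-UTR pair, of 781 bp, 5.42 and 4.99 (log2 ratio -0.12). The last pair of *Gja1* had 4.68 in sham against 5.17 in CCI (log2 ratio 0.14), and its last block lies beyond the end of *Gja1* in RefSeq, inside the noncoding gene Gm36460. *Aqp4* (ENSMUSG00000024411) encodes the water channel of astrocyte endfeet. Its 3′-UTR pair had 9.76 in sham against 9.46 in CCI (log2 ratio -0.05), and its 5′ pair had 4.81 in sham against 2.64 in CCI (log2 ratio -0.87). This 5′ pair sets 390 exonic bp in sham against 61 bp in CCI, and it is lost when 50% of both peaks must overlap. The markers' 5′-UTR pairs then number 8, of which 8 were higher in CCI, with a median log2 ratio of 0.62. The 5′ pair of *Gfap*, also unequal with 120 exonic bp in sham against 61 bp in CCI, is kept. In CCI the *Aqp4* 5′ peak (chr18:15403624-15403684) lies at 0.21% of the gene's span in the authors' annotation. It is well inside the RefSeq span, which runs to 15410982. Both pairs of *Aqp4* also lie within the span of the noncoding gene A830021F12Rik.

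*Sox9* (ENSMUSG00000000567), a transcription factor of the astrocyte lineage, had its strongest pair in the 3′-UTR, with 19.5 in sham against 20.8 in CCI (log2 ratio 0.09). The second 3′-UTR pair of *Sox9* had 9.47 and 8.02 (log2 ratio -0.24), and the exon pair had 2.28 and 1.80 (log2 ratio -0.34). *Aldh1l1* (ENSMUSG00000030088) encodes a folate enzyme that marks most astrocytes. Its single shared pair in the 3′-UTR had 8.13 in sham against 11.3 in CCI (log2 ratio 0.47). Another peak annotated in a 3′-UTR was listed in sham only (3.68) and one in CCI only (1.76). The sham-only peak (chr6:90599366-90599545) lies beyond the RefSeq end of *Aldh1l1* at 90599171, and the CCI-only peak at 38.5% of the gene's span. The shared pair and the sham-only peak also lie within the noncoding gene Gm15756, and the tables give no strand for a peak.

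*S100b*, which encodes a calcium-binding protein released by astrocytes, had no row under its own name in any of the 3 tables. However, 3 shared pairs lie inside its RefSeq span (chr10:76253836-76261319 on GRCm38.p6) and carry the name Dip2a, a neighbouring gene whose RefSeq span begins only at 76263034. The name came from a short Dip2a transcript that the authors' annotation places at chr10:76259429-76265508. The first pair is spliced, with 3 blocks in sham that begin at 76253883, near one end of the *S100b* span. In CCI it has 2 blocks that begin at 76257099, with 268 exonic bp against 416 in sham. It was annotated in a 5′-UTR in sham and in a 3′-UTR in CCI. This pair had 6.71 in sham against 7.64 in CCI (log2 ratio 0.19), over these unequal peaks. The second had 2.09 and 2.45 (log2 ratio 0.23) and the third 10.6 and 7.76 (log2 ratio -0.45). Their log10 p lay between -907 and -345, and the second overlapped a row of the differential table. The count of 9 genes follows the names in the tables, and by position all 10 markers held a peak in CCI.

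**Figure D3:**
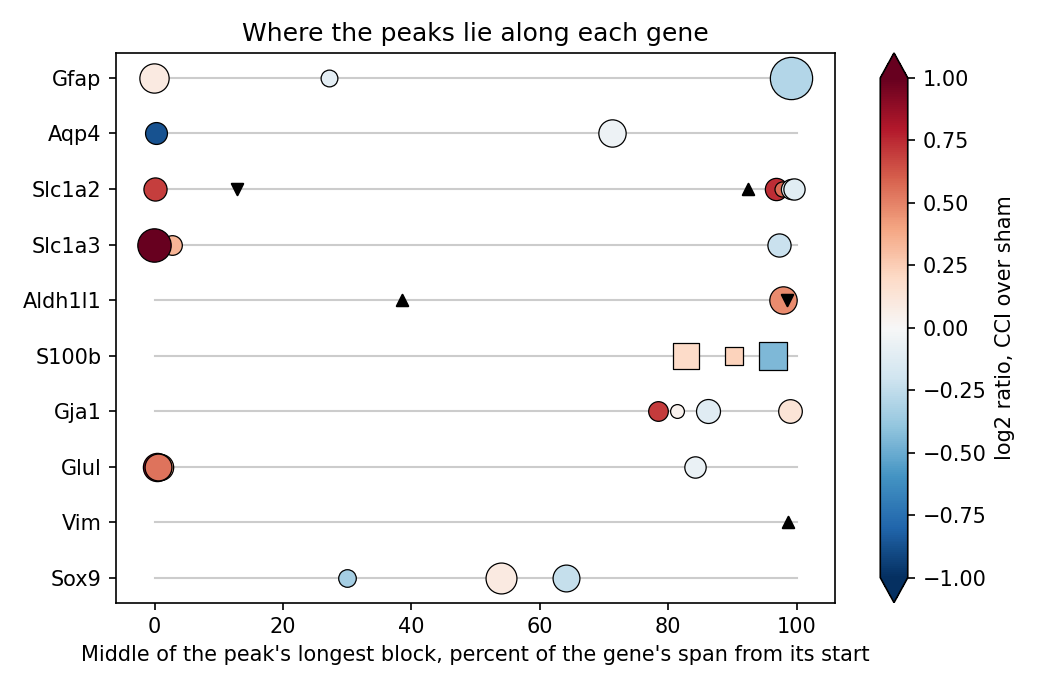
Middle of the longest block of each peak along the gene, in percent of the gene's span from its start. Circles are shared pairs, sized by fold enrichment and coloured by the log2 ratio of CCI to sham (the colours end at -1 and 1); triangles pointing up are CCI-only and triangles pointing down sham-only peaks; squares are the 3 pairs inside *S100b* that the tables name Dip2a. Red circles lie at the starts of *Slc1a2*, *Slc1a3* and *Glul*, and also near the end of *Slc1a2* (log2 ratios 0.74 and 0.57). Most other circles at the ends are pale.

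Across the markers, the ratios differed by region. Of the 9 shared pairs in a 5′-UTR, 8 were higher in CCI, with a median log2 ratio of 0.54, and 5 of the 6 genes with such a pair had at least 1 that was higher. Over all genes, 46.1% of the 3981 shared 5′-UTR pairs were higher in CCI, with a median log2 ratio of -0.07. Without *Glul*, whose 3 pairs overlap, 5 of 6 were higher. In the 3′-UTR, 5 of 13 marker pairs were higher in CCI with a median log2 ratio of -0.07, against 54.4% and 0.06 over all 3′-UTR pairs, and in exons 1 of 3 was higher, against 51.2%. In 5 of the 6 markers with pairs in both regions, the median log2 ratio was higher in the 5′-UTR than in the 3′-UTR, the exception being *Aqp4*. Of the 2389 genes with pairs in both regions, 1076 (45%) had the higher median in the 5′-UTR. These counts describe 1 pair of IP and input libraries per group, and the pattern was seen before it was counted.

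Over all regions together, 14 of the 25 marker pairs were higher in CCI, against 51.8% of all shared pairs. The median log2 ratio of the marker pairs was 0.09 and that of all shared pairs 0.03. The median absolute log2 ratio was 0.29 for the markers and 0.40 for all shared pairs.

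The authors' differential table held 12 rows of 6 markers, namely *Glul* with 4, *Slc1a2* with 3, *Gfap* with 2, and *Gja1*, *Slc1a3* and *Aqp4* with 1 each. Only the positions of these rows were used. By overlap, 12 of the 25 marker pairs were listed, 6 of them with a higher and 6 with a lower fold enrichment in CCI. Over all shared pairs, 15.7% were listed. The 6 higher pairs came from *Slc1a2* and *Glul* alone, with 3 each, and the 3 of *Glul* overlap at the transcript start and are not independent. Over all genes, listing was more frequent among pairs with strong evidence. Among all pairs with a log10 p of -100 or below in both lists, 38.1% were listed. Among the 14 marker pairs of that strength 9 were, the overlapping pairs of *Glul* included. Single pairs could go the other way. The 3′-UTR pair of *Aqp4*, with a log10 p of -2260 in sham and -1460 in CCI, was not listed. Its 5′ pair, with -25 and -8.37, was. A high share was not particular to the markers. In the lists described below, 31 of 70 pairs were listed for astrocyte identity and 13 of 24 for oligodendrocytes. Lower counts were 5 of 41 for reactive astrocyte genes, 3 of 14 for neurons and 1 of 15 for microglia. For oligodendrocyte precursors 2 of 9 were listed, and for endothelium 2 of 7. Why these shares differ was not tested. Listed pairs could differ little in fold enrichment, as at the 3′-UTR of *Glul* (log2 ratio -0.07), and the pair with the largest ratio, at *Slc1a3*, was not listed.

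Of 32 other genes of astrocyte identity, 29 had a peak in both lists. *Cldn10*, a tight junction gene, had peaks in CCI only, and *Aldoc* and *Fabp7* had none. The 70 shared pairs of this list had a median log2 ratio of 0.06, with 5 at least 2-fold higher and 3 at least 2-fold lower in CCI, both below the shares of 8.59% and 7.25% over all shared pairs. In the 5′-UTR 9 of 17 were higher in CCI, where 46.1% of all 5′-UTR pairs were. By the strongest pair of each gene, the highest ratios belonged to *Id3*, a transcriptional inhibitor (3.18 in sham, 15.1 in CCI, log2 ratio 2.25), *Agt*, which encodes angiotensinogen (13.5 and 52.1, log2 ratio 1.95), and the GABA transporter gene *Slc6a11* (294 and 872, log2 ratio 1.57). The lowest belonged to the transcription factor *Nfib* (98.8 and 20.6, log2 ratio -2.26), the acyl-CoA synthetase gene *Acsbg1* (26.7 and 9.90, log2 ratio -1.43) and the connexin gene *Gjb6* (40.5 and 15.5, log2 ratio -1.39).

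Of 30 genes tied to the reactive state of astrocytes, 19 had a peak in both lists and 11 had none in either, among them *Timp1*, *C3*, *Cxcl10* and *Gbp2*. Without RNA levels, a missing peak, here or at *Aldoc* and *Fabp7*, does not show that the RNA lacked m6A. The 41 shared pairs of this list had a median log2 ratio of 0.09. Of these pairs, 6 were at least 2-fold higher and 4 at least 2-fold lower in CCI, both above the shares of 8.59% and 7.25% over all shared pairs. The highest ratios were those of the filament gene *Nes* (8.52 in sham, 34.4 in CCI, log2 ratio 2.01) and the serpin genes *Serping1* (12.5 and 36, log2 ratio 1.53) and *Serpina3n* (8.67 and 23.6, log2 ratio 1.44). The lowest were those of *Cd44*, a hyaluronan receptor (7.79 and 3.31, log2 ratio -1.23), the sphingosine phosphate receptor gene *S1pr3* (17.4 and 7.82, log2 ratio -1.15) and the heat shock gene *Hspb1* (11.8 and 5.51, log2 ratio -1.10). All 6 of these strongest pairs lay in a 3′-UTR.

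**Figure D4:**
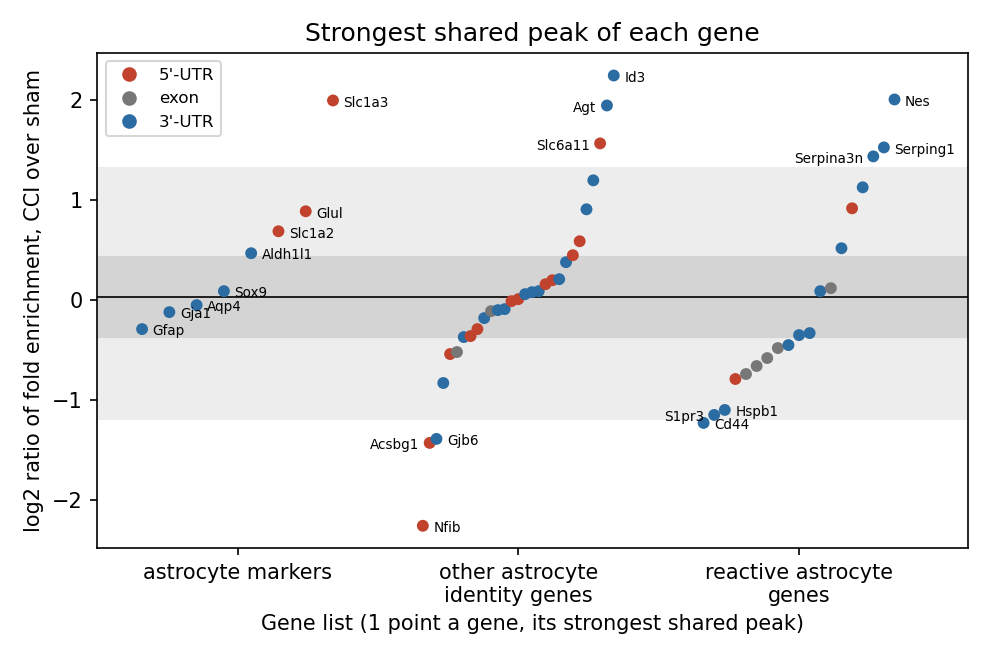
Log2 ratio of fold enrichment of CCI over sham for the strongest shared peak of each gene, in order, for the markers, the other astrocyte identity genes and the reactive astrocyte genes, coloured by region. The line is the median of all shared pairs (0.03) and the dark and light bands their middle 50% and middle 90%. Among the markers *Slc1a3* alone lies outside the light band, at 2.00, and both other lists have genes beyond it at either end.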

How the data were processed

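MeRIP-seq of spinal cord gave 1 IP and 1 input library for CCI and for sham. The submitters' processing notes name fastp, HISAT2, HOMER and ChIPseeker and the build GRCm38, whereas the methods of the paper name Cutadapt, bowtie, MACS2 and ChIPseeker. The tables carry exomePeak column names. The deposited fold enrichment of a peak is a ratio that the authors' caller formed from the IP and input libraries. The deposited log10 p and log10 false discovery rate were handled as a score, since some are minus infinity. The fold changes and p-values of the authors' differential table were not used, only the positions of its rows.

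Peaks were compared by exonic blocks on the same chromosome, with at least 1 bp shared. The tables give no strand of a peak, so strand was not used. A shared pair is 2 peaks that each overlap the other most, measured as shared bases over the union. A fold of 2 was the limit for a call. The strongest pair of a gene has the highest mean fold enrichment. With 1 library per group and no counts, no p-value or interval was computed and the error of a ratio is unknown.

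Named genes were the 10 markers and, of the identity and reactive lists, the 3 with the highest and the 3 with the lowest log2 ratio of the strongest pair. Marker lists of neurons, oligodendrocytes and their precursors, microglia and endothelium were counted too, and 1 further list is not reported here. The members and lists were chosen with earlier results of these data known. All 9 markers with a peak lay over the RefSeq gene of that name (GRCm38.p6). Pairing was tested on made-up peaks. Alternatives covered the filters on peaks, the overlap, the fold limit, centring and the unit of counting. Python 3.11.15, numpy 2.4.6, pandas 2.3.3 and matplotlib 3.10.9 were used.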

Additional observations from a re-analysis of the deposited data

How the results depend on the processing

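No paired analysis was possible because 1 IP and 1 input library make up a group. Of 158 values under alternatives, 147 stayed close to the reported value (counts to 1.5 times, log2 values to 0.1), 11 did not, and 0 reversed. A reversal was scored only for log2 values of at least 2-fold, so the 0 says nothing of counts or smaller ratios. Some of the 147 could hardly change. A false discovery rate below 0.01 removed none of the markers' 28 and 27 peaks, and assigning peaks to *S100b* leaves the strongest pairs of other genes as they are. With a limit of 0.5 on the log2 scale in place of 2-fold, 7 marker pairs were higher and 1 was lower in CCI. The identity list then had 15 higher and 9 lower, and the reactive list 11 and 8. The larger counts follow from the looser limit. The share of all shared pairs past this limit was not counted, so these counts and their splits have no background. Over all shared pairs, the lower and upper quartiles of the log2 ratio were -0.37 and 0.43, both inside this limit. With 1 pair per gene, the median log2 ratio of the markers was 0.28 in place of 0.09. With each gene and region counted once, 9 markers had a 3′-UTR peak in CCI and 8 in sham. Alternatives chosen after seeing the data left out *Glul* (5 of 6 5′-UTR pairs higher in CCI), counted overlapping peaks of a gene as 1 (median 0.69 in the 5′-UTR, in place of 0.54) or assigned the peaks inside *S100b* to it. Each ratio also rests on separate input libraries and, for all but 8 marker pairs, on unequal peak borders.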

Other observations

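Marker lists of 5 other cell types of the tissue were counted in the same way, and each of their genes had a peak in both lists. On the log2 scale the median of CCI over sham was -0.17 over the 14 shared pairs of 5 neuronal genes, 0.07 over the 24 pairs of 5 oligodendrocyte genes and 0.17 over the 9 pairs of 2 genes of oligodendrocyte precursors. It was -0.03 over the 15 pairs of 6 microglial genes and 0.02 over the 7 pairs of 3 endothelial genes. Among these lists, the 5′-UTR pairs were few. All 4 neuronal 5′-UTR pairs, which came from 2 genes, were lower in CCI, and 2 of 4 oligodendrocyte 5′-UTR pairs were higher, where 46.1% of all 3981 shared 5′-UTR pairs were higher and 2135 were lower. The part of these cell types in any result above was not tested.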
